A study of Rattus norvegicus with 3 samples.

Results

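Kinesins and dyneins are the motors that move along microtubules, and tubulins are the subunits from which microtubules are built. Their genes were described in FRSK cells, an established rat line of fetal skin keratinocytes, after exposure to either of 2 opioid peptides. Members were the named genes whose symbol on the array begins with Kif or Kifc and a number (kinesin heavy chains), Klc (kinesin light chains), Dync or Dynl (cytoplasmic dynein chains), Dctn (dynactin subunits), or Tuba, Tubb, Tubg, Tubd, Tube or Tubgcp (tubulins and the γ-tubulin complex). The match used symbols alone and found 77 of the 15037 named genes. The members and the gene lists used below were, however, chosen with earlier results of these data known.

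The series holds 3 Affymetrix whole-transcript arrays, 1 for each condition. The Met-ENK array carries RNA of FRSK cells given Met-enkephalin, an opioid peptide of the enkephalin family, at 100 nM for 24 h. The β-END(1-9) array carries RNA of cells given a fragment of β-endorphin whose amino terminus holds the Met-enkephalin sequence, at the same dose and time. The control array carries RNA of unstimulated cells (a vehicle is not mentioned in the labels). All 3 cultures were of the same line, with no genetic change in the labels, so cultured cells without the layers of skin are the model.

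With 1 array per condition there is no measure of the spread between cultures, and no test, p-value or standard error is given. Values are log2 signals, and each comparison is a difference of log2 signals between 2 arrays, in which 1 unit is a doubling. Having so few arrays limits how precise the values are. Both peptides were set against the same control array, so their differences from it share its error. A gene passed the filter on low values when its 3-array mean reached 6.41, the median signal of named genes. Of the 77 members, 55 passed, as did 7519 of all 15037 genes. The 23 background probe sets of the array reached 7.57, and 6 of the 55 members lay within their range on every array. Of 10 listed markers of basal keratinocytes 5 were measured and all 5 passed, with Krt14, a keratin of the basal layer, at 16.61 with Met-ENK, 16.63 with β-END(1-9) and 16.70 in the control. Their differences for Met-ENK against control ran between -0.57 (Krt15) and 0.49 (Itga6). None of 7 measured ciliated cell markers and none of 6 endothelial markers passed. Those that passed were 1 of 12 neuron, 3 of 9 fibroblast, 1 of 5 melanocyte and 1 of 7 immune cell markers. In the control the fibroblast markers that passed were at 8.53 (Col3a1), 8.28 (Col1a1) and 7.85 (Fbln1). Mitf of the melanocyte list was at 9.76 and Cd74 of the immune list at 9.09. Whether these signals come from other cells was not tested.

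Microtubules are hollow polymers of α- and β-tubulin dimers that start from rings of γ-tubulin. Most kinesins walk toward the plus end and carry cargo outward or slide spindle microtubules apart, whereas cytoplasmic dynein, which needs dynactin, walks toward the minus end. In the epidermis these genes serve division of basal cells, positioning of the spindle and traffic to junctions and the cell surface.

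Among the kinesins 5 genes are followed most closely, and their promoters are shown because spindle kinesins belong to genes that are switched on late in the cell cycle, often through the elements searched here. The sequences are RefSeq promoters of assembly GRCr8, 250 bases before to 50 bases after the gene start, printed 5′ to 3′ on the strand of the gene. Capitals mark CCAAT boxes (CCAAT, or ATTGG on the other strand) and cell cycle homology regions (TTTGAA, or TTCAAA on the other strand). Kif11 lies at chr1:244536617-244536916 on the plus strand, Kif20a at chr18:26504172-26504471 on the plus strand, Kif23 at chr8:71320535-71320834 on the minus strand, Kif3b at chr3:162218438-162218737 on the plus strand and Kif5c at chr3:54441057-54441356 on the plus strand.
Kif11: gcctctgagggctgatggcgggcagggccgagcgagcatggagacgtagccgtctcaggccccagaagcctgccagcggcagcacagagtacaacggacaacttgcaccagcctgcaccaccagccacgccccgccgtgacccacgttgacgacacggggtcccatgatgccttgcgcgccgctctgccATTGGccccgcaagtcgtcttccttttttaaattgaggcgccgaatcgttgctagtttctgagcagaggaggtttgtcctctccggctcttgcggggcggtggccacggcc
Kif20a: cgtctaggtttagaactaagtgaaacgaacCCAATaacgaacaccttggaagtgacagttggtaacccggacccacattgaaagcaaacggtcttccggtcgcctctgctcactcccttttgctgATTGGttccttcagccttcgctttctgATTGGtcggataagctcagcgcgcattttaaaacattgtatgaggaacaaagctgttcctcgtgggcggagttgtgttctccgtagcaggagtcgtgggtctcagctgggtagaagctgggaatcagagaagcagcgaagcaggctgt
Kif23: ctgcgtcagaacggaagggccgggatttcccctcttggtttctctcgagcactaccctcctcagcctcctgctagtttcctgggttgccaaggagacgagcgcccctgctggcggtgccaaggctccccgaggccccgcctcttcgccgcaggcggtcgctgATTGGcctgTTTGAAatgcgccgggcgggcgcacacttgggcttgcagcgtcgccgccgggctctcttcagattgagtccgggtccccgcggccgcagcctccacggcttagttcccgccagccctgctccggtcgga
Kif3b: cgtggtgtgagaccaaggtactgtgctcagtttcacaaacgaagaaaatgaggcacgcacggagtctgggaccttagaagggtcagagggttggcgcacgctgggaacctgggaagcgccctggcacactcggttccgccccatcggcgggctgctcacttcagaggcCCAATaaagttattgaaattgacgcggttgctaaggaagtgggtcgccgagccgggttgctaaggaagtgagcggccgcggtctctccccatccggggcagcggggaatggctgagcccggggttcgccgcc
Kif5c: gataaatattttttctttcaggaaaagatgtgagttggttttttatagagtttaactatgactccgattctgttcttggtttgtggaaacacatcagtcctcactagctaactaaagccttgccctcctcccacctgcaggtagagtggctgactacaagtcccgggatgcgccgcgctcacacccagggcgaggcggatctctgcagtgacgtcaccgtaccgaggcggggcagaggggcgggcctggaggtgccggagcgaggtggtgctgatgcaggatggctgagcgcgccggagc

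The 3 spindle kinesins each held a CCAAT box. In Kif11 it stood 61 bases before the start on the other strand, and Kif20a had 3, at 220, 125 and 98 bases before the start. Kif23 had a CCAAT box 88 bases before the start and a TTTGAA 79 bases before it, and the 2 did not overlap. Kif3b had a CCAAT box at 82 bases, and the Kif5c window held neither motif. Promoters were found for 67 of the 77 members. TTTGAA on either strand was in 5 of 10 mitotic kinesins, 0 of 9 transport kinesins and 13 of the 67 members (19.4%), against 18.1% of all 27457 promoters in the table. CCAAT on either strand was in 6 of 10 mitotic kinesins, 3 of 9 transport kinesins and 32 of the 67 members (47.8%), against 37.7% of all promoters. It was also in 6 of 8 α-tubulins, 5 of 7 β-tubulins and 4 of 6 dynein light chains, so it was not particular to mitotic kinesins. These matches describe letters in the window and do not show that a factor binds there.

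The mitotic kinesins named for the comparison had their highest signal on the Met-ENK array. Kif11, the motor that pushes the spindle poles apart, had a log2 signal of 13.06 with Met-ENK, 12.51 with β-END(1-9) and 12.51 in the control. Its difference was 0.54 for Met-ENK against control, 0.00 for β-END(1-9) against control and 0.54 for Met-ENK against β-END(1-9). Kif20a, which works in cytokinesis and brings the chromosomal passenger complex to the spindle midzone, had 10.66 with Met-ENK, 10.27 with β-END(1-9) and 10.24 in the control. Kif23, the motor of the centralspindlin complex that organises the midzone, had 13.62 with Met-ENK, 13.37 with β-END(1-9) and 13.37 in the control. In all 3 the Met-ENK signal stood above 2 nearly equal signals, by 0.54, 0.41 and 0.26 over the control, and none of these differences reached 1.5-fold (0.58 on the log2 scale). RefSeq lists 1 pseudogene of Kif11, and whether the probes separate it was not tested.

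The other 7 mitotic kinesins differed less between Met-ENK and control. Kif20b, a kinesin of late cytokinesis, had 12.38 with Met-ENK, 12.28 with β-END(1-9) and 12.18 in the control. Kifc1, a minus-end motor that focuses spindle poles, had 7.63 with Met-ENK, 7.29 with β-END(1-9) and 7.57 in the control. It was the mitotic kinesin with the lowest β-END(1-9) difference, at -0.28, and its β-END(1-9) signal lay within the background range. Kif15, which can aid Kif11 in spindle assembly, had 9.06 with Met-ENK, 8.90 with β-END(1-9) and 9.10 in the control. Kif18b and Kif2c, which act on microtubule ends, had exactly the same signal on all 3 arrays, 11.15 for Kif18b and 7.75 for Kif2c. For β-END(1-9) against control the 10 mitotic kinesins ranged between -0.28 and 0.10. Between the peptides all 8 unequal ones were higher with Met-ENK, 7 of them by more than 0.1, against 45.4% of all genes higher, 33.0% lower and 31.2% higher by more than 0.1.

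The transport kinesins held the largest kinesin differences, and these belonged to Kif3b and Kif5c. Kif3b pairs with Kif3a in kinesin-2, which drives outward transport in cilia and carries other cargo. Its signal was 10.49 with Met-ENK, 9.43 with β-END(1-9) and 10.03 in the control. The control lay between the peptides, and Met-ENK differed from it by 0.46 and β-END(1-9) by -0.60. Kif3b was therefore 1.06 higher with Met-ENK than with β-END(1-9) on the log2 scale, or 2.08-fold, and 1.51-fold lower with β-END(1-9) than in the control. The second difference was -0.50 with quantile normalization and -0.52 with the span trend removed, both under 1.5-fold. Its partner Kif3a had 9.54 with Met-ENK, 9.60 with β-END(1-9) and 9.55 in the control, and so differed by at most 0.06 where Kif3b differed by 1.06.

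Kif5c is a kinesin-1 heavy chain best known from neurons. Its log2 signal was 8.78 with Met-ENK, 8.30 with β-END(1-9) and 7.99 in the control, so both peptide arrays lay above the control. The difference was 0.80 for Met-ENK against control (1.74-fold), 0.31 for β-END(1-9) against control and 0.49 for Met-ENK against β-END(1-9). Kif5b, the kinesin-1 heavy chain of most tissues, stood in the same order with smaller steps, at 14.44 with Met-ENK, 14.31 with β-END(1-9) and 14.14 in the control. Kif5a, the other neuronal member, was under the filter at 6.23 with Met-ENK, 6.20 with β-END(1-9) and 6.15 in the control. Of the 12 neuron markers 0 were 1.5-fold higher or lower with Met-ENK than in the control, against 2.98% and 4.21% of all genes without the filter. Their Met-ENK differences ran between -0.06 (Nefl) and 0.56 (Dcx), both genes under the filter. Dcx had 6.70 with Met-ENK, 6.15 with β-END(1-9) and 6.15 in the control. The log2 signals of the 12 summed to 61.0 with Met-ENK, 61.7 with β-END(1-9) and 59.9 in the control. The marker that passed, Map2, had 10.27, 10.28 and 10.27 on those arrays. With β-END(1-9) 2 of the 12, Snap25 and Nefm, were 1.5-fold higher than in the control, against 2.64% of all genes without the filter. Between the peptides 1, Snap25, was 1.5-fold lower with Met-ENK than with β-END(1-9), against 3.05% of all genes without the filter. Snap25 and Nefm were under the filter, with Snap25 at 3.73 with Met-ENK, 4.58 with β-END(1-9) and 3.52 in the control. The part of the neuron markers in the Kif5c differences was not tested.

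**Figure D1:**
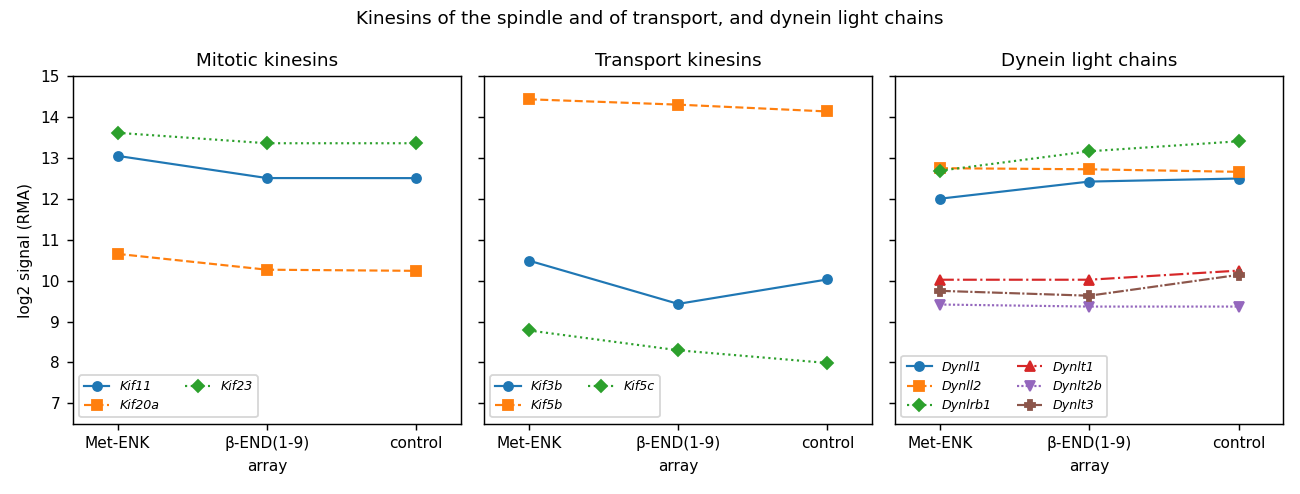
The vertical axis is the log2 signal and the horizontal axis the array (Met-ENK, β-END(1-9), control), with 1 point per gene and array and a line that joins the points of 1 gene. Kif11, Kif20a and Kif23 are highest on the Met-ENK array, Kif3b is lowest on the β-END(1-9) array, and Dynlrb1, Dynll1 and Dynlt3 are highest on the control array.

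Kif1c of the kinesin-3 family, Kif13a and Kif16b of endosome traffic, and Kif3c each differed little across the arrays. In Kif1b, also of the kinesin-3 family, Met-ENK stood 0.32 above β-END(1-9). Kif1c had 12.92 with Met-ENK, 12.92 with β-END(1-9) and 12.79 in the control. Kif1b, which moves organelles such as mitochondria, had 12.20 with Met-ENK, 11.89 with β-END(1-9) and 12.07 in the control. Kif16b had exactly 10.92 on every array, and the Kif13a and Kif3c differences ran between -0.06 and 0.10 after rounding. Kifc3, a minus-end kinesin of epithelial cells, had 7.92 with Met-ENK, 7.48 with β-END(1-9) and 7.75 in the control, and part of its values lay within the background range. The Kifc3 difference between the peptides, 0.44, was one of the 5 largest positive ones among the members.

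The light chains of kinesin-1, which couple it to cargo, had nearly the same signal with Met-ENK as in the control and unequal signals with β-END(1-9), in opposite directions. Klc1 had 13.16 with Met-ENK, 12.90 with β-END(1-9) and 13.16 in the control. Klc4 had 6.89 with Met-ENK, 7.12 with β-END(1-9) and 6.89 in the control, which lies within the background range. Klc3 was under the filter, with the same signal of 4.79 on every array.

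The large chains of cytoplasmic dynein differed by less than 1.5-fold in all 3 comparisons. Dync1h1, the heavy chain that carries the motor of dynein-1, had 14.56 with Met-ENK, 14.34 with β-END(1-9) and 14.34 in the control. Dync1li2, a light intermediate chain that links dynein to cargo adaptors, had 14.19 with Met-ENK, 13.92 with β-END(1-9) and 13.92 in the control. As deposited, these 2 repeat the form seen in Kif11 and Kif23, with equal or nearly equal β-END(1-9) and control signals and a higher Met-ENK signal. Exactly equal β-END(1-9) and control signals occurred in 25.1% of all genes. With quantile normalization β-END(1-9) lay above the control by 0.09 in Dync1h1, 0.10 in Kif11 and 0.11 in Kif23. Dync1i2, an intermediate chain that binds dynactin, had 12.45 with Met-ENK, 12.17 with β-END(1-9) and 12.30 in the control. Dync2h1, the heavy chain of the dynein that returns cargo in cilia, had 7.40 with Met-ENK, 6.94 with β-END(1-9) and 7.51 in the control. Its β-END(1-9) difference of -0.58 fell just short of 1.5-fold, and all 3 of its signals lay within the background range.

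The dynein light chains are small subunits that bind the intermediate chains and, for several of them, other proteins. Of 9 measured, 6 passed, and 4 of the 6 were lower with Met-ENK than in the control by more than 0.1, against 32.9% of all genes. Dynlrb1, the roadblock light chain, had the largest difference: its signal was 12.69 with Met-ENK, 13.17 with β-END(1-9) and 13.41 in the control, a Met-ENK difference of -0.72 (1.65-fold lower). Dynll1, an LC8 light chain that also serves as a dimerising hub for other proteins, had 12.01 with Met-ENK, 12.43 with β-END(1-9) and 12.50 in the control. In both of these the Met-ENK array was the lowest and the β-END(1-9) array lay nearer to the control.

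The Tctex light chains did not share that order. Dynlt3 had 9.75 with Met-ENK, 9.63 with β-END(1-9) and 10.14 in the control, so that both peptide arrays were lower, with differences of -0.39 and -0.51. Dynlt1 had 10.03 with Met-ENK, 10.03 with β-END(1-9) and 10.25 in the control. For these 2 the peptide arrays lay together below the control. Dynll2, the second LC8 chain, had 12.76 with Met-ENK, 12.73 with β-END(1-9) and 12.67 in the control, against a Met-ENK difference of -0.49 for Dynll1. Dynlt2b, a light chain of the ciliary dynein, had 9.42 with Met-ENK, 9.37 with β-END(1-9) and 9.37 in the control. The 3 that did not pass were Dynlrb2 at 3.85 with Met-ENK, 3.91 with β-END(1-9) and 3.94 in the control, Dynlt2 at 5.55 on each array, and Dynlt5 at 3.05 with Met-ENK, 2.84 with β-END(1-9) and 2.61 in the control. RefSeq lists 2 pseudogenes each of Dynll1 and Dynlt1 and 1 of Dynlt2b, so the level of these genes is uncertain where probes match a copy.

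Dynactin is the complex that joins dynein to cargo and to the microtubule. Of the 5 Dctn members that passed, 0 were higher than the control by more than 0.1 with either peptide. Over all genes 20.3% were with Met-ENK and 9.59% with β-END(1-9). Dctn6, a subunit of the pointed end of the dynactin filament, had 9.45 with Met-ENK, 10.12 with β-END(1-9) and 10.25 in the control. The Met-ENK array stood apart from the other 2, by -0.80 from the control (1.74-fold lower) and by -0.67 from β-END(1-9) (1.59-fold lower). Dctn5, another pointed-end subunit, had 12.37 with Met-ENK, 12.17 with β-END(1-9) and 12.44 in the control. Dctn4, also of the pointed end, had 10.18 with Met-ENK, 10.18 with β-END(1-9) and 10.42 in the control. The pointed-end members thus differed in unlike ways. Actr10, the actin-related protein of the same end, is a partner gene outside the members. It had 11.75 with Met-ENK, 12.17 with β-END(1-9) and 12.40 in the control (-0.65 for Met-ENK against control). Other dynactin genes among the partners went both ways with Met-ENK. Against the control Actr1b differed by 0.36, Capza1 by 0.35, Actr1a by 0.06, Capzb by 0.00 and Capza2 by -0.12.

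Of the remaining Dctn members, Dctn2, whose excess takes dynactin apart, had 11.66 on each array. Dctn1, the large arm that touches the microtubule, had 9.01 with Met-ENK, 9.01 with β-END(1-9) and 9.16 in the control. Dctn3, a shoulder subunit, did not pass the filter, with a mean of 6.26, so it is not among the 55. It had 5.75 with Met-ENK, 6.38 with β-END(1-9) and 6.66 in the control, differences of -0.90 and -0.28 from the control that lie within the background range.

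**Figure D2:**
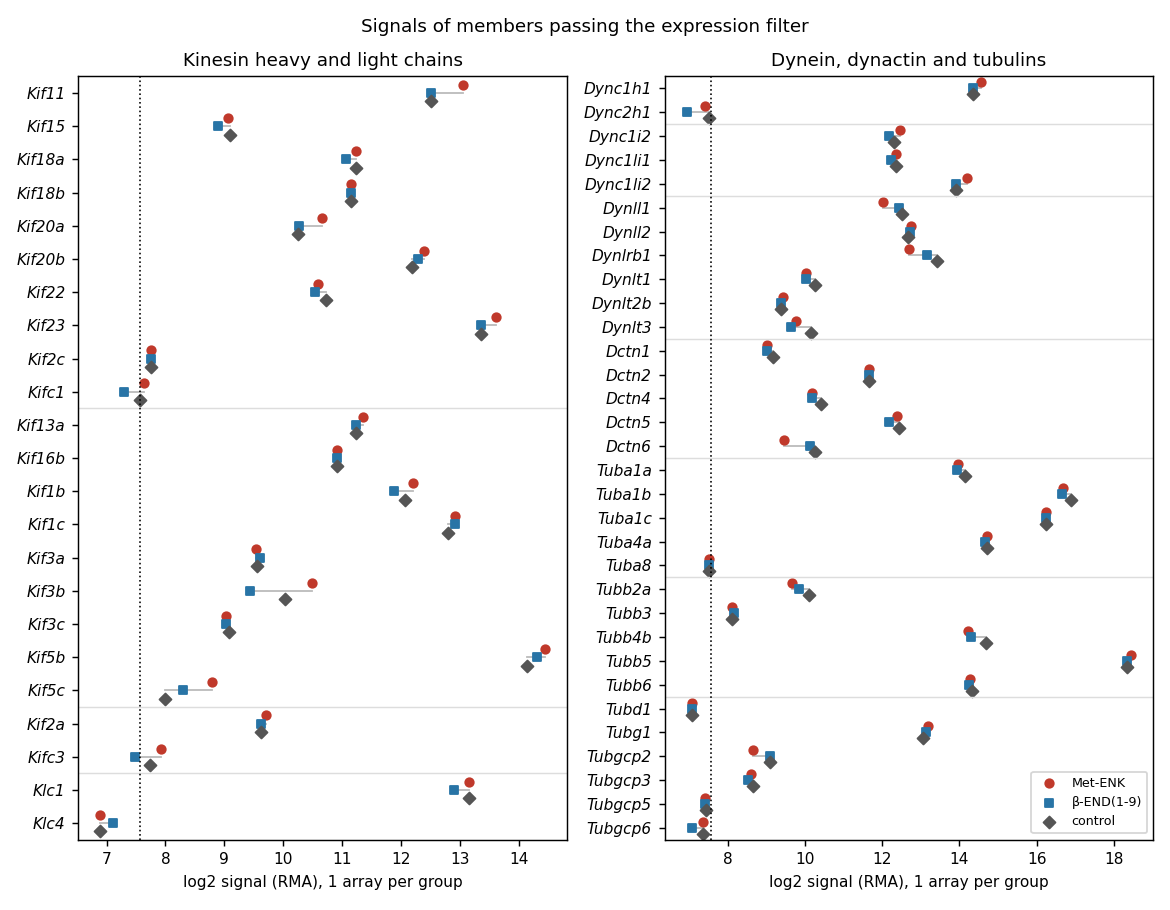
The horizontal axis is the log2 signal and each row is 1 of the 55 members that passed the filter, with a circle for Met-ENK, a square for β-END(1-9) and a diamond for the control; a grey bar spans the 3 arrays and the dotted line at 7.57 marks the highest background probe set. Kif3b, Kif5c, Dynlrb1 and Dctn6 have wide bars, and many other members have signals that nearly coincide.

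Among the α- and β-tubulins that passed, those with the largest differences from the control were lower than the control with both peptides. Tubb4b, a broadly expressed β-tubulin, had 14.21 with Met-ENK, 14.31 with β-END(1-9) and 14.68 in the control. Tubb2a had 9.66 with Met-ENK, 9.84 with β-END(1-9) and 10.09 in the control. In both, Met-ENK was lowest and the control highest, with Met-ENK differences of -0.47 and -0.42 that stayed under 1.5-fold. Tuba1b, a major α-tubulin of dividing cells, had 16.68 with Met-ENK, 16.66 with β-END(1-9) and 16.89 in the control. Tuba1a had 13.95 with Met-ENK, 13.95 with β-END(1-9) and 14.15 in the control, so the peptide arrays of both α-tubulins lay about 0.2 under the control. Tubb5, another β-tubulin, had 18.45 with Met-ENK, 18.34 with β-END(1-9) and 18.34 in the control. RefSeq lists 14 pseudogenes of Tuba1b, 5 of Tuba1a and 4 of Tubb4b, and the α-tubulin genes themselves are nearly identical in sequence, so signals may be shared among copies.

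The tubulin median was -0.03 for Met-ENK against control and -0.06 for β-END(1-9) against control over the 10 α- and β-tubulins that passed, out of 15. Quantile normalization of the arrays turned these medians to 0.04 and 0.05, so no direction can be given for the family. Tubb3, the β-tubulin used as a mark of neurons, had 8.11 with Met-ENK, 8.15 with β-END(1-9) and 8.11 in the control. The other tubulins that passed, Tuba1c, Tuba4a, Tuba8 and Tubb6, differed by at most 0.1 in any comparison, and Tuba8 had 1 value on every array.

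Among the γ-tubulin genes, which start new microtubules, Tubgcp2 differed most. This subunit of the small γ-tubulin complex had 8.66 with Met-ENK, 9.09 with β-END(1-9) and 9.08 in the control, a Met-ENK difference of -0.42. Tubgcp3, its partner in the small complex, had 8.59 with Met-ENK, 8.53 with β-END(1-9) and 8.66 in the control. Tubgcp6 of the ring complex had 7.36 with Met-ENK, 7.07 with β-END(1-9) and 7.36 in the control, within the background range. Tubg1, the γ-tubulin itself, had 13.20 with Met-ENK, 13.14 with β-END(1-9) and 13.04 in the control. Tubgcp2 was thus the lone member of this class past 0.4 in any comparison.

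Few members passed 1.5-fold, and their shares have to be read against those of all 7519 genes. For Met-ENK against control 1 of 55 members was higher (Kif5c), against 0.692% of all genes, and 2 were lower (Dynlrb1 and Dctn6, 3.64% of the 55), against 6.02% of all genes. For β-END(1-9) against control 0 were higher, against 0.559% of all genes, and 1 was lower (Kif3b, 1.82%), against 2.27% of all genes, a call that 2 of the alternatives above remove. For Met-ENK against β-END(1-9) 1 was higher (Kif3b), against 1.89% of all genes, and 1 was lower (Dctn6), against 2.7% of all genes. Counts of 0 to 2 in 55 are near these backgrounds, so the members as a whole did not stand out at this threshold. In all, 4 members passed it in some comparison. Kif3b alone passed 2-fold, for Met-ENK against β-END(1-9) (1 of 55, 1.82%, against 0.0798% of all genes).

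Of the 55 members, 10 had exactly equal signals with Met-ENK and in the control (18.2%, against 21.6% of all genes), 11 with β-END(1-9) and in the control (20.0%, against 25.1% of all genes) and 11 on the 2 peptide arrays (20.0%, against 21.5%). The same value on all 3 arrays occurred in Kif18b, Kif2c, Kif16b, Tuba8 and Tubd1, a δ-tubulin. Such ties are common in these files and pull class medians toward 0.

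Smaller differences leaned one way between the peptides. For Met-ENK against β-END(1-9) 23 members were more than 0.1 higher and 6 more than 0.1 lower (41.8% and 10.9%), against 31.2% and 22.8% of all genes. For Met-ENK against control the members split into 16 above 0.1 and 14 below -0.1 (29.1% and 25.5%), against 20.3% and 32.9% of all genes. In the β-END(1-9) comparison with control 5 were above and 24 below (9.09% and 43.6%), against 9.59% and 37.8% of all genes. These comparisons share arrays, so their leanings are not separate observations.

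The comparison of mitotic with transport kinesins gave small differences of either sign. The median difference for Met-ENK against control was 0.03 over 10 mitotic kinesins and 0.12 over 9 transport kinesins, against 0.00 over all genes. For β-END(1-9) against control both medians were 0.00, against -0.03 over all genes. For Met-ENK against β-END(1-9) the medians were 0.16 for mitotic and 0.10 for transport kinesins, against 0.00 over all genes. The class gap was therefore -0.09, 0.00 and 0.06, far less than the range within either class. For Met-ENK against control that range ran between -0.12 and 0.54 for mitotic and between -0.06 and 0.80 for transport kinesins. Kif11, Kif20a and Kif23 overlapped Kif3b and Kif5c for Met-ENK against control, at 0.26 to 0.54 for the 3 and 0.46 to 0.80 for the other 2. They lay apart for β-END(1-9) against control, where the 3 were between 0.00 and 0.03 while Kif3b was at -0.60 and Kif5c at 0.31.

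**Figure D3:**
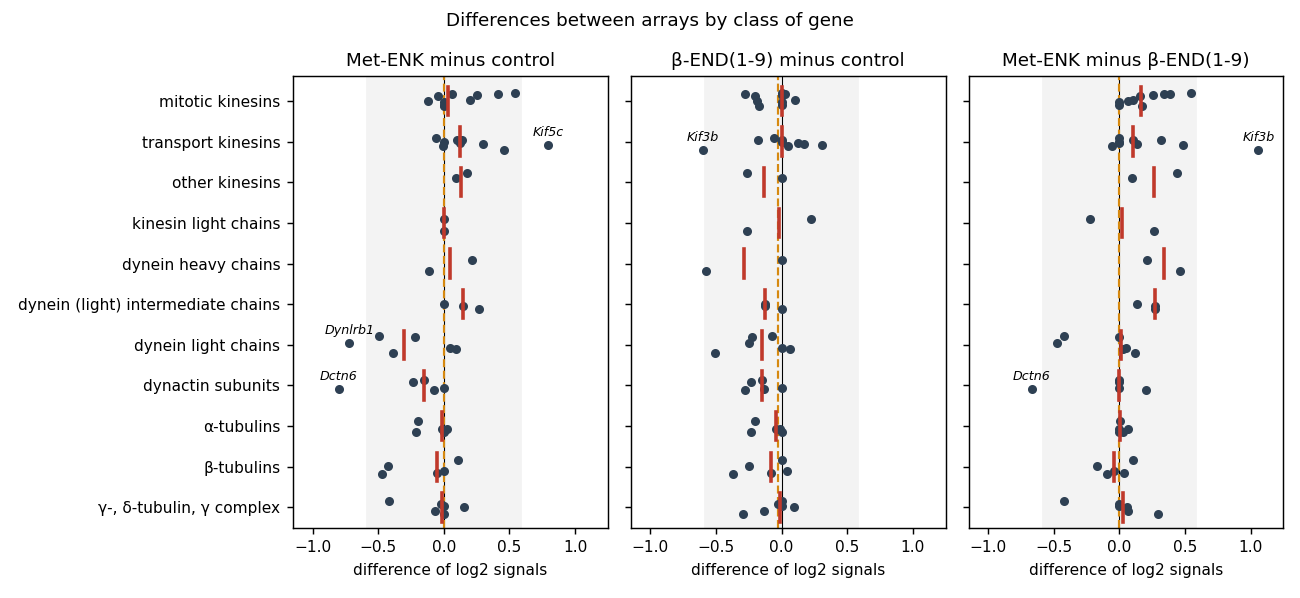
The horizontal axis is the difference of log2 signals between 2 arrays, each point is a member that passed the filter, rows are classes, red bars are class medians, the dashed line is the median of all genes and the shaded band holds differences under 1.5-fold. The named points outside the band are Kif5c, Dynlrb1 and Dctn6 for Met-ENK against control, Kif3b for β-END(1-9) against control, and Kif3b and Dctn6 for Met-ENK against β-END(1-9).

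The small dynein light chains and the large motors, here the kinesin heavy chains with Dync1h1 and Dync2h1, lay further apart. For Met-ENK against control the median was -0.31 over 6 light chains and 0.10 over 23 large motors, a gap of -0.41. Of the 23 large motors 12 were above 0.1 and 2 below -0.1, while of the 6 light chains 0 were above and 4 below, against 20.3% above and 32.9% below of all genes. The ranges still met, at -0.72 to 0.09 for light chains and -0.12 to 0.80 for large motors. For β-END(1-9) against control the medians were -0.15 and 0.00, with 0 light chains above 0.1 and 3 below -0.1, and 4 large motors above and 8 below, against 9.59% and 37.8% of all genes. Without the filter on low values the gap was -0.19 for Met-ENK against control and -0.026 for β-END(1-9) against control. For Met-ENK against β-END(1-9) they were 0.01 and 0.16, and 15 of the 23 large motors were above 0.1 and 0 below -0.1, against 31.2% and 22.8% of all genes.

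Light chains and large motors also differ in gene size, which moved with the differences. The genomic span, the distance between the ends of a gene in GRCr8, was 6.96 to 31.6 kb for the 6 light chains (median 14.0 kb) and 8.49 to 279.5 kb for the 23 large motors (median 55.6 kb). Across the 55 members, which share the same arrays, Pearson's r between the Met-ENK difference from control and log10 span was 0.34, and across the 7516 genes with a span it was 0.27. Tuba1c has the longest annotated span among the 55, 441.6 kb, which is doubtful for a tubulin gene, and without it r was 0.37. The same r for β-END(1-9) against control was 0.10 for members and -0.00 for all genes, and for Met-ENK against β-END(1-9) 0.29 for both. In 5 bins of equal size, the genes with the shortest spans had a median Met-ENK difference of -0.09, and those with the longest 0.00. With the trend along span subtracted, the gap between light chains and large motors was -0.26 for Met-ENK against control. For Met-ENK against β-END(1-9) the large-motor median was then 0.07 (0.16 as deposited), against 0.07 over all 55 members. In that setting the mitotic kinesin median was 0.07 and the transport kinesin median -0.02. Over all 3329 genes within the span range of the light chains the median Met-ENK difference was 0.00, against -0.31 for the light chains. The part that gene size has in the gap was not tested beyond these values, and protein length was not used here.

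**Figure D4:**
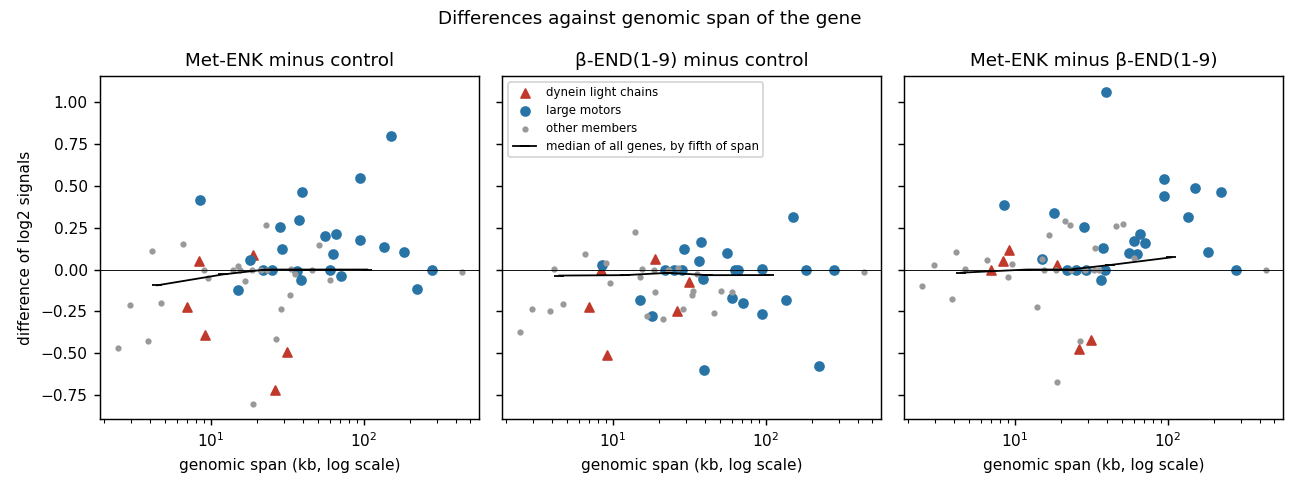
The horizontal axis is genomic span in kb on a log scale and the vertical axis the difference of log2 signals; triangles are dynein light chains, blue circles large motors and grey points other members, and the black line joins the medians of all genes in 5 bins of span. In the Met-ENK minus control panel 4 of the 6 light chains lie below the black line, and the large motors of longer span lie mostly at or above 0.

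Directions opposite for the 2 peptides, with one above and the other below the control, were found in 9 of 55 members (16.4%), against 19.6% of all genes. The count depended on scaling. It was 13 with quantile normalization (23.6%, against 29.2% of all genes). With arrays centred on their medians it was 17 (30.9%, against 27.0% of all genes). In several of the 9 a difference was close to 0. Kif3b was the only one of these with a 1.5-fold difference between the peptides. The others were Kifc1, Kif1b, Kif3a, Kifc3, Dync1i2, Dync1li1, Tubgcp2 and Tuba4a, with differences from the control between -0.42 and 0.17.

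Genes that work with the motors were described from lists of partners. Of 48 microtubule and motor partners that passed, 0 were higher and 5 lower (10.4%) with Met-ENK than in the control by 1.5-fold, against 0.692% and 6.02% of all genes. Camsap3, which caps minus ends in epithelial cells, had 6.79 with Met-ENK, 7.57 with β-END(1-9) and 7.82 in the control, with both peptide signals within the background range. Stmn1, or stathmin, which binds tubulin dimers and destabilises microtubules, had 12.94 with Met-ENK, 13.51 with β-END(1-9) and 13.86 in the control, a Met-ENK difference of -0.92. Both were lowest with Met-ENK. Tbcb, a tubulin folding cofactor, had 8.12 with Met-ENK, 8.92 with β-END(1-9) and 8.75 in the control. Clip4 had 7.20 with Met-ENK, 7.20 with β-END(1-9) and 8.00 in the control, again with both peptide signals within the background range. With Actr10 these make the 5.

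For β-END(1-9) against control 0 of the 48 partners were higher and 2 lower (4.17%, against 2.27% of all genes), Clip4 and Kifbp. Kifbp, which binds kinesins and holds them off microtubules, had 8.16 with Met-ENK, 7.81 with β-END(1-9) and 8.46 in the control. Between the peptides Hook1, an adaptor that links dynein to endosomes, was higher with Met-ENK, at 10.96 with Met-ENK, 10.33 with β-END(1-9) and 10.44 in the control, while Camsap3 and Tbcb were lower. The median of the partner list was 0.00 for Met-ENK against control, -0.06 for β-END(1-9) against control and 0.02 between the peptides, close to the 0.00, -0.03 and 0.00 of all genes.

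Among 18 spindle and cytokinesis partners that passed, 0 were higher and 2 lower (11.1%) with Met-ENK by 1.5-fold, against 0.692% and 6.02% of all genes, and 0 passed in the other comparisons. Aurkb, the kinase of the chromosomal passenger complex that Kif20a carries, had 11.75 with Met-ENK, 12.18 with β-END(1-9) and 12.36 in the control. Cdk1, the kinase that drives entry into mitosis, had 11.75 with Met-ENK, 12.10 with β-END(1-9) and 12.35 in the control. Other genes of the list ran the other way, with Prc1, which bundles midzone microtubules, at 13.18 with Met-ENK, 12.98 with β-END(1-9) and 12.99 in the control. Over the 18, 3 were above 0.1 and 7 below -0.1 for Met-ENK against control (16.7% and 38.9%, against 20.3% and 32.9% of all genes), with a median of 0.00. Of 6 measured axonemal dynein genes, the dyneins of beating cilia, 2 passed, and Dnal4 had 7.58 with Met-ENK, 8.31 with β-END(1-9) and 8.46 in the control.

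The 22 members under the filter included Kif12, Kif26a, Kif26b, Kif27, Kif28p, Kif2b, Kif9, Kifc2, Dync1i1, Dync2i1, Dync2i2, Tuba3a, Tuba3b, Tubal3, Tubb2b and Tubb4a beside the 6 already given. Their differences ran between -0.90 and 0.53 for Met-ENK against control and between -0.28 and 0.54 for β-END(1-9) against control. Dync2i1, an intermediate chain of ciliary dynein, was just under the limit with a mean of 6.40. Their signals do not exceed the highest background probe set, so the array does not separate these genes from background by level.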

How the data were processed

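RNA of 3 FRSK cultures was measured on 1 Affymetrix whole-transcript array each. The authors deposited log2 signals for each probe set, for which the submitters' processing notes list RMA, the Affymetrix Expression Console and the Transcriptome Analysis Console, with versions not given in the sources used here. RMA corrects background, normalizes arrays against each other and summarises probes, so a shift common to all genes of an array would not be seen. Of 24834 probe sets 1646 were controls, and the platform annotation named 15049 of 23188 transcript clusters, for 15037 genes. No member had several probe sets.

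Python 3.11.15 and pandas 2.3.3 computed differences between arrays, counts at 1.5-fold and class medians over genes with a mean of at least 6.41. All 77 members matched RefSeq GRCr8, the source of spans and promoters. The array medians over clusters were 5.96 for Met-ENK, 5.97 for β-END(1-9) and 5.93 for the control. The counting was tested on simulated data. Alternatives changed scaling, filter, threshold, span trend (statsmodels 0.14.6), probe set choice and class summary. Leaving Tuba1c out of the span correlation was chosen after seeing the data.

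Members named are Kif11, Kif20a, Kif23, Kif3b, Kif5c, the dynein light chains, both dynein heavy chains, those past 1.5-fold and the 5 largest differences per direction and comparison; others are named to complete a class and were chosen after their values were seen. Partners named passed 1.5-fold in some comparison, except Prc1 and the dynactin genes given beside Actr10. Prc1 was named as a gene that ran the other way. Those dynactin genes were named after their values were seen. The members and lists were chosen with earlier results of these data known.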

Additional observations from a re-analysis of the deposited data

Results flagged for a closer look

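The 2 peptides lay on opposite sides of the control in 9 of 55 members (16.4%, against 19.6% of all genes). Kif3b was the only one of these with a 1.5-fold difference between the peptides. Its log2 signal was 10.49 with Met-ENK, 9.43 with β-END(1-9) and 10.03 in the control. It differed from the control by 0.46 with Met-ENK and by -0.60 with β-END(1-9). Between the peptides it was 1.06 higher with Met-ENK than with β-END(1-9). With 1 array per condition this difference was not tested.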

How the results depend on the processing

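No paired analysis was possible because each condition has 1 array, and for the same reason no array can be left out. Of the counts of members under the alternatives, 34 stayed within 1.5 times the reported count and 8 did not. At 2-fold the counts were 0 higher and 0 lower for Met-ENK against control (1 and 2 at 1.5-fold), against 0.0665% and 0.745% of all genes. They were 0 lower for β-END(1-9) against control and 0 lower for Met-ENK against β-END(1-9), each against 0.213% of all genes. The count of members lower with β-END(1-9) than in the control, 1 as reported, was 0 with quantile normalization (1.52% of all genes), 0 with the span trend removed (1.40%) and 2 with arrays centred on their medians (2.86%), where Dync2h1 joined Kif3b. The Kif3b difference itself was -0.50 with quantile normalization and -0.52 with the span trend removed, under 1.5-fold in both. Without the filter 2 members were lower with Met-ENK than with β-END(1-9) (3.05% of all genes), Dctn3 being added. The gap between dynein light chains and large motors kept its sign throughout. For Met-ENK against control it was -0.19 without the filter and -0.26 with the span trend removed, for β-END(1-9) against control -0.026 without the filter, and for Met-ENK against β-END(1-9) -0.024 with the span trend removed and -0.34 with class means. The cause of these changes was not tested. Signals under 7.57 lie within background, which limits Dync2h1, Klc4, Tubgcp5, Tubgcp6, Tuba8 and Tubd1 among the members that passed.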
